A study of Mus musculus with 6 samples.

Results

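Cells that sit in sheets and cells that move singly use different adhesion and cytoskeletal genes, and 10 genes that mark these states (Cdh1, Cdh2, Epcam, Krt8, Krt18, Vim, Snai1, Snai2, Zeb1 and Zeb2) were followed here through mouse embryonic stem cell (ESC) differentiation. They were taken by symbol from the 21639 gene entries of the RNA-Seq table, and each of the 10 had a single entry. The study asked whether the extended acidic patch of H2A.Z, a surface of this histone variant that differs from canonical H2A, is needed for gene regulation as ESCs differentiate. Poly(A) RNA was sequenced from 3 lines, H2A.ZWT, H2A.ZKD and H2A.ZAP3, each as undifferentiated ESCs (day 0, D0) and as embryoid bodies (EBs, day 3, D3), so each of the 6 conditions had a single library.

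The lines were made from KH2 ESCs, although the strain label reads V6.5 (129SvJaexC57BL/6). A lentiviral H2A.Z-YFP transgene, driven by a CMV promoter under an rtTA system, was induced with doxycycline at 1 µg/ml, and YFP-positive cells were sorted. H2A.ZWT cells carried the wild-type transgene, and H2A.ZAP3 cells carried a transgene in which 3 acidic patch residues were exchanged for those of H2A. Short hairpins against the 3′ UTR of endogenous H2A.Z, selected with blasticidin, were placed in the transgenic lines, and H2A.ZKD denotes depletion of endogenous H2A.Z. The labels do not say whether a transgene was expressed in the H2A.ZKD cultures, or whether a line was 1 clone. ESCs were grown with LIF and serum on irradiated embryonic fibroblasts, which were left out for the last passage, and EBs formed without LIF on non-adherent plates. The labels call the D3 samples embryonic stem cells at day 3.

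An epithelial cell is held to its neighbours by adherens junctions built on E-cadherin and carries keratin filaments, whereas a mesenchymal cell has N-cadherin, vimentin filaments and front-rear polarity. In the epithelial-mesenchymal transition, which occurs at gastrulation, repressors of the Snail and ZEB families bind E-box sequences and switch off Cdh1 and other epithelial genes. Mouse ESCs and the epiblast they derive from are epithelial in this sense and rely on E-cadherin for compact colonies. Fibroblasts, including feeder cells, are mesenchymal.

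Depth was estimated from the RPKM values at 17.3 to 27.6 M reads per library, and 11644 to 11802 entries reached 1 RPKM (a read count scaled by transcript length and by the size of the library). With 1 library per condition there was no replicate error for a single condition or for a comparison of 2 single libraries. Tests were possible only for a change between days that the 3 lines shared and for a difference between lines that both days shared. A gene is called changed where a ratio passed 1.5-fold, and the 95% intervals given with log2 ratios are counting intervals from approximate read numbers, which do not cover differences between cultures. H2afz, the targeted gene, was at 279, 343 and 304 RPKM in WT, KD and AP3 ESCs and at 258, 236 and 394 RPKM in EBs of these lines, so it was not lower in the ESC library labelled KD. Reads of a transgene fall on the same coding exons as the endogenous gene. The paper measured endogenous H2A.Z by qRT-PCR and western blot in the transgenic lines and reports its depletion with the hairpins. The library labelled H2A.ZKD is called so by its label throughout. All 7 pluripotency markers measured exceeded 1 RPKM in every library and summed to 2460 to 2598 RPKM at D0 and to 1664 to 2066 RPKM at D3. The 8 primitive streak markers summed to at most 4.81 RPKM in any library.

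The E-box that Snail and ZEB proteins recognise reads CACCTG, which on the opposite strand is CAGGTG, and it was looked for in RefSeq promoter windows of GRCm38.p6, from 250 bases before to 50 bases after the annotated start. Windows were matched for 6 of the 10 genes (Epcam, Krt8, Krt18, Vim, Snai1 and Zeb2), and the table's own coordinates are in another build, mm9. The sites are shown because the proteins of Snai1, Snai2, Zeb1 and Zeb2 recognise these letters, with the 6 motif bases in capitals and the strand of the gene read 5′ to 3′. The Epcam window held a site 187 bases before the start (chr17:87635782-87635807, plus strand) and another 19 bases before it (chr17:87635950-87635975, plus strand). Krt18 held 1 site 214 bases before its start (chr15:102027992-102028017, plus strand), and Snai1 held 1 site 126 bases before its own (chr2:167538059-167538084, plus strand).
Epcam, distal: cagtagggccCACCTGctggaggacc
Epcam, proximal: ccataaaaccCAGGTGtggaggagaa
Krt18: gggctaacacCACCTGctatcctttg
Snai1: agcccaggcgCACCTGctccggtctc

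The motif was present in 6634 of 32817 promoter windows of the same length (20.2%), and 2 or more copies, as in Epcam, were present in 2.88%. Neither the Vim window nor any of the 4 Zeb2 windows contained these letters. The looser E-box CANNTG, which includes the motif above, was present in 72.3% of all windows. A match is a description of the letters and shows no binding.

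Cdh1 encodes E-cadherin, the adhesion protein of adherens junctions. It lies on chromosome 8 (mm9, 109127268 to 109194146, plus strand) and was the most even of the 10 genes, with a highest level 1.32-fold above its lowest. Its level was 96.1 RPKM in WT, 96.9 RPKM in KD and 104 RPKM in AP3 ESCs, and 79.1, 83.4 and 90.0 RPKM in the EBs of the same lines. All 3 EB libraries were below all 3 ESC libraries, and AP3 was the highest line and WT the lowest at both days. The WT and KD intervals overlapped at D0. No ratio of Cdh1 in any of the 9 comparisons passed 1.5-fold.

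Epcam, on chromosome 17 (88035319 to 88050467, plus strand), encodes an epithelial adhesion molecule that is also a surface marker of ESCs. It was measured at 72.9 RPKM in WT, 93.8 RPKM in KD and 79.0 RPKM in AP3 ESCs, and at 114, 105 and 108 RPKM in WT, KD and AP3 EBs. Here the EB libraries were all above the ESC libraries, the reverse of Cdh1. Only the WT line passed the threshold between the days (log2 ratio 0.65, interval 0.57 to 0.72). In EBs the WT and AP3 intervals overlapped, as did the AP3 and KD intervals.

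Krt8 and Krt18 encode the type II and type I keratins that pair into the filaments of simple epithelia, and they are near neighbours on chromosome 15 (Krt8 at 101827142 to 101834773, minus strand, and Krt18 at 101858647 to 101862457, plus strand). Krt8 was at 31.1 RPKM in WT, 17.5 RPKM in KD and 18.5 RPKM in AP3 ESCs, and at 31.0, 41.7 and 25.8 RPKM in the corresponding EBs. Krt18 was at 34.6 RPKM in WT, 15.1 RPKM in KD and 14.4 RPKM in AP3 ESCs, and at 64.4, 68.4 and 37.3 RPKM in EBs. Both keratins were therefore higher in WT ESCs than in either of the other ESC libraries, whose intervals overlapped for both genes. In EBs this order was gone: KD was highest and AP3 lowest for both, and the KD and WT intervals overlapped for Krt18.

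The ratio between the keratins was not constant, although their levels were correlated over the 6 libraries (Pearson r of 0.937). The ratio of Krt18 to Krt8 in RPKM was 1.11, 0.864 and 0.780 in WT, KD and AP3 ESCs and 2.08, 1.64 and 1.45 in their EBs. Thus the type I keratin exceeded its type II partner in all 3 EB libraries, by more than in any ESC library. Krt7, a keratin of trophectoderm and other simple epithelia, was at 4.11, 2.44 and 1.82 RPKM in ESCs and at 3.79, 2.25 and 1.70 RPKM in EBs, so it was also highest in the WT line at D0 but stayed so at D3.

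**Figure D1:**
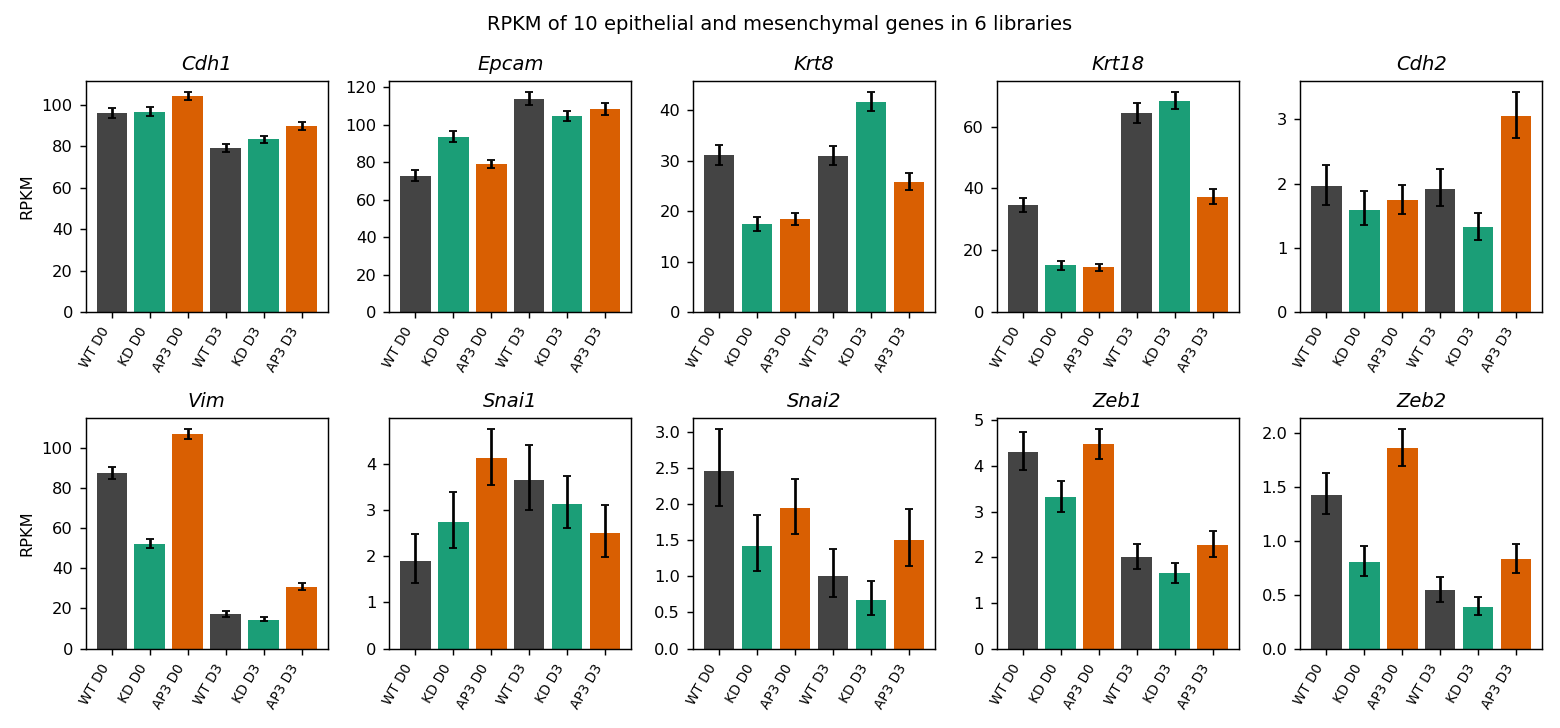
RPKM (vertical axes, each starting at 0 and on its own scale) of the 10 genes in the 6 libraries, with grey bars for WT, green for KD and orange for AP3, and with whiskers for the 95% counting interval of the single library. Cdh1 stayed between 79.1 and 104 RPKM, while Vim, Zeb1 and Zeb2 were lower in all 3 EB libraries and ordered AP3, WT, KD on both days.

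Cdh2 encodes N-cadherin, the cadherin of mesenchymal and neural cells, and lies on chromosome 18 (16747386 to 16967558, minus strand). It was low throughout, at 1.96, 1.60 and 1.75 RPKM in WT, KD and AP3 ESCs and at 1.92, 1.32 and 3.06 RPKM in EBs. The 3 ESC intervals overlapped, whereas AP3 EBs stood above both other EB libraries. Cdh1 exceeded Cdh2 in every library, by 49.1-fold, 60.7-fold and 59.9-fold in WT, KD and AP3 ESCs and by 41.2-fold, 63.2-fold and 29.4-fold in EBs. The AP3 EB library had the lowest of these 6 ratios, and it was there that Cdh2 was highest.

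Vim encodes vimentin, the intermediate filament of mesenchymal cells, on chromosome 2 (13495938 to 13504453, plus strand), and it varied most of the 10 genes, over a 7.36-fold range. Its level was 87.1 RPKM in WT, 52.2 RPKM in KD and 107 RPKM in AP3 ESCs, and 17.2, 14.5 and 30.9 RPKM in EBs. None of the counting intervals of the 3 lines overlapped at either day, and the order was AP3, then WT, then KD at both. In ESCs Vim was thus at a level close to Cdh1 in WT and AP3, with a Cdh1 to Vim ratio of 1.10 and 0.979, against 1.86 in KD, and in EBs that ratio was 4.61 in WT, 5.75 in KD and 2.91 in AP3. As these are bulk RNA samples, a change in the share of cells that make a transcript and a change in its amount per cell cannot be told apart.

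Zeb1 and Zeb2 encode E-box-binding zinc finger proteins that repress Cdh1. Zeb1 was at 4.31, 3.31 and 4.47 RPKM in WT, KD and AP3 ESCs and at 2.01, 1.65 and 2.28 RPKM in EBs. Its deposited locus (chromosome 18, 5491499 to 5774909, plus strand) starts upstream of the annotated gene (5591858 to 5775465). Zeb2 (chromosome 2, 44839154 to 44969602, minus strand) was at 1.43, 0.806 and 1.86 RPKM in ESCs and at 0.542, 0.387 and 0.830 RPKM in EBs. Both had the line order of Vim at both days. For Zeb1 the AP3 and WT intervals overlapped at both days, and at D3 the WT and KD intervals overlapped for both genes. Zeb1 was above Zeb2 in every library, by 2.40-fold to 4.26-fold.

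Snai2 (chromosome 16, 14705952 to 14709475, plus strand), which encodes Slug, was at 2.46, 1.42 and 1.94 RPKM in WT, KD and AP3 ESCs and at 1.01, 0.674 and 1.5 RPKM in EBs. These values rest on 35 to 108 reads, and the intervals of neighbouring lines overlapped at both days. Snai1 (chromosome 2, 167363727 to 167368311, plus strand), which encodes Snail, the factor that opens the transition at gastrulation, was at 1.89, 2.74 and 4.11 RPKM in WT, KD and AP3 ESCs and at 3.64, 3.13 and 2.5 RPKM in EBs. The line order was thus opposite at the 2 days: AP3, KD, WT in ESCs and WT, KD, AP3 in EBs. From 53 to 184 reads lie behind each Snai1 value, and the intervals of neighbouring lines overlapped in EBs, as did those of KD and WT in ESCs, so that of the neighbours in these orders only AP3 and KD ESCs stood apart. The ratio of Snai1 to Snai2 was 0.768 in WT ESCs and above 1 in the other 5 libraries, from 1.67 in AP3 EBs to 4.64 in KD EBs.

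The change from ESCs to EBs was compared in each line. In the WT line the mesenchymal filament gene and 3 of the repressors were lower in EBs, while 2 epithelial genes and Snai1 were higher, so that 7 of the 10 genes changed, beside 30.7% of all 21639 entries and 21.0% of entries with a mean of at least 1 RPKM in the 2 libraries. Vim was lower by the largest margin (log2 ratio -2.34, interval -2.46 to -2.23), followed by Zeb2 at -1.40 (interval -1.77 to -1.04), Snai2 at -1.29 (-1.88 to -0.72) and Zeb1 at -1.10 (-1.34 to -0.86). The 3 genes that were higher were Snai1 (0.94, 0.46 to 1.45), Krt18 (0.90, 0.77 to 1.02) and Epcam. The 4 lower genes stand beside 16.5% of all entries called lower and the 3 higher genes beside 14.1% called higher. Cdh1, Krt8 and Cdh2 were at -0.28, -0.01 and -0.03.

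In the line labelled KD, 2 genes were higher and 4 lower (30.2% of all entries changed, 14.0% higher and 16.2% lower). With a mean of at least 1 RPKM, 5 of 9 genes changed, beside 20.3% of entries. Vim was at -1.85, Snai2 at -1.08, Zeb2 at -1.06 and Zeb1 at -1.01, the same 4 genes that were lower in the WT line. With 1 RPKM added to each value, Snai2 (-0.53) and Zeb2 (-0.38) no longer passed 1.5-fold in this line, whereas all 4 did in WT. Both keratins were higher, Krt18 by 2.18 (interval 2.03 to 2.34) and Krt8 by 1.26, each more than in either other line. Epcam was at 0.16 and Snai1 at 0.19.

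In the AP3 line, 2 genes were higher and 4 lower (31.0% of all entries changed, 14.7% higher and 16.3% lower, and 22.3% of those with a mean of at least 1 RPKM). Vim (-1.79), Zeb2 (-1.17) and Zeb1 (-0.97) were again lower, Krt18 was higher by 1.37, and Krt8 was at 0.48. Snai1 was lower (-0.72, interval -1.11 to -0.33, and -0.55 and not called with 1 RPKM added) where the WT line had a positive change, and Cdh2 was higher (0.81, interval 0.56 to 1.06, and 0.56 and not called with 1 RPKM added). Snai2 was at -0.37 (interval -0.85 to 0.10), and Epcam was at 0.46.

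The difference between the log2 changes of AP3 and WT was widest for Snai1, at -1.66, and was 0.92 for Snai2, 0.84 for Cdh2 and 0.56 for Vim. For KD and WT it was widest for the keratins, at 1.28 for Krt18 and 1.26 for Krt8, followed by Snai1 at -0.75. Zeb1 and Cdh1 differed least, by 0.13 and 0.07 in AP3 and by 0.09 and 0.07 in KD. These differences were not tested, and the WT libraries enter both.

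The change between days was also tested with the 3 lines as pairs, in limma on log2(RPKM + 0.1) with line as a block. Here the lines, which differ in H2A.Z, stand in for replicates, so the test asks for a change that the lines share. Of the 10 genes 3 had an adjusted p under 0.05, 1 higher and 2 lower, beside 11% of 12702 entries tested (5.39% higher and 5.65% lower). Vim was lower in 3 of 3 lines, by a mean log2 difference of -1.99 ± 0.30 (SD over lines, limma adjusted p = 0.00038). Zeb1 was lower in 3 of 3 lines, at -0.99 ± 0.06 (limma adjusted p = 0.012), and Krt18 was higher in 3 of 3 lines, at 1.48 ± 0.65 (limma adjusted p = 0.0070). Zeb2 (-1.08 ± 0.18, limma adjusted p = 0.064), Snai2 (-0.85 ± 0.45, 0.086) and Epcam (0.42 ± 0.25, 0.089) each had 1 sign in 3 of 3 lines and missed the threshold, as did Cdh1 (-0.24 ± 0.04, 0.23). Without the WT line Zeb1 lost its call (0.19), without the KD line Zeb1 (0.098) and Krt18 (0.055) lost theirs, and without the AP3 line Snai2 gained one (0.045), so Vim alone was called with each line left out. The share of all entries called was 1.01% without WT, 1.76% without KD and 12% without AP3.

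**Figure D2:**
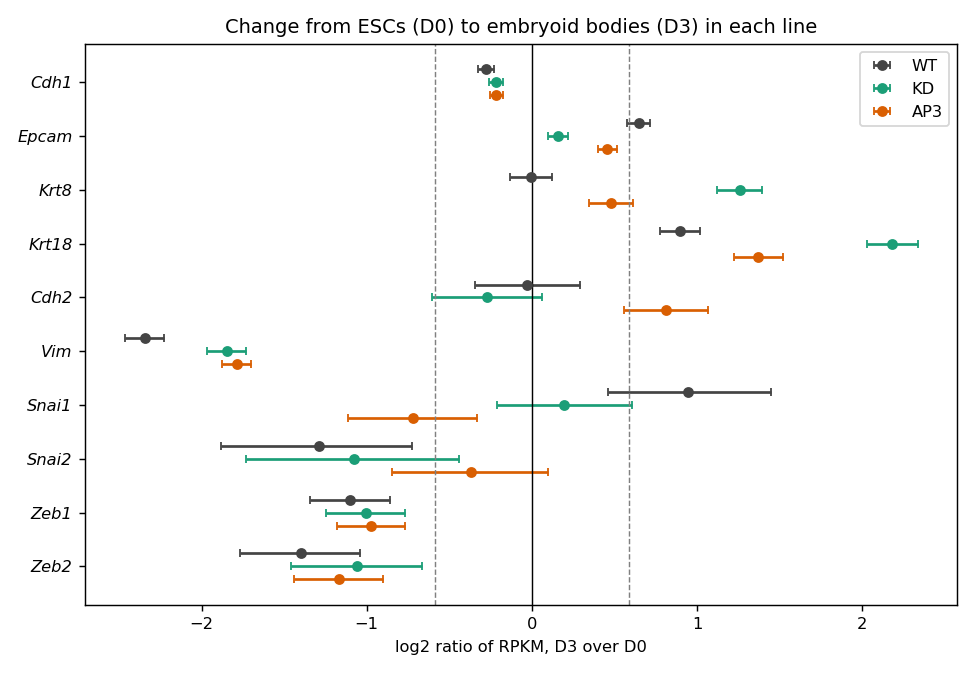
Log2 ratio of RPKM in EBs (D3) over ESCs (D0), on the horizontal axis, for the 10 genes in the WT (grey), KD (green) and AP3 (orange) lines, with 95% counting intervals and dashed lines at 1.5-fold. Vim, Zeb1 and Zeb2 lie left of the lower threshold in all 3 lines, and Snai1 lies at 0.94 in WT and at -0.72 in AP3.

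AP3 was then set against WT at each day. In ESCs the keratins were lower and Snai1 higher in AP3, and the other 7 genes lay within 1.5-fold, so that 3 genes changed beside 25.0% of all entries (11.1% higher and 13.9% lower) and 12.4% of those with a mean of at least 1 RPKM. Krt18 was at -1.26 (interval -1.42 to -1.11), Krt8 at -0.75 (-0.88 to -0.62) and Snai1 at 1.12 (0.67 to 1.59). Vim was at 0.29, Zeb2 at 0.38 and Cdh1 at 0.12.

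In EBs 4 genes changed (22.1% of all entries, 10.4% higher and 11.7% lower), and 3 of the 4 belong to the mesenchymal side, although Cdh2 is also a neural gene. With a mean of at least 1 RPKM, 3 of 9 genes changed, beside 8.83% of entries. The 6 neural markers summed to 37.0, 29.1 and 46.7 RPKM in WT, KD and AP3 EBs, the order of Cdh2 there, and to 40.1, 52.6 and 25.9 RPKM in ESCs, and their part in the Cdh2 levels was not tested. Vim was higher in AP3 by 0.85 (interval 0.72 to 0.98), Cdh2 by 0.67 (0.39 to 0.95) and Zeb2 by 0.61 (0.23 to 1.01), while Krt18 was at -0.79 (-0.90 to -0.67). Snai2, at 0.58 (-0.03 to 1.20), lay just inside the threshold, and Snai1 was at -0.54 (-0.98 to -0.11). With 1 RPKM added to each value in place of 0.001 RPKM, Cdh2 and Zeb2 no longer passed 1.5-fold.

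The library labelled KD was compared with WT in the same way. In ESCs 5 genes changed and all were lower in KD, beside 19.7% of all entries changed (8.96% higher and 10.7% lower) and 6.84% of entries with a mean of at least 1 RPKM. Krt18 was at -1.20, Krt8 at -0.83, Zeb2 at -0.83, Snai2 at -0.79 and Vim at -0.74, so the keratins were lower together with 3 mesenchymal-side genes, while Cdh1 was at 0.01, Epcam at 0.36 and Snai1 at 0.53. With 1 RPKM added, Snai2 (-0.51) and Zeb2 (-0.43) no longer passed 1.5-fold, and Vim was the 1 mesenchymal-side gene still called. In EBs none of the 10 passed 1.5-fold, beside 20.7% of all entries (9.41% higher and 11.3% lower) and 7.27% of entries with a mean of at least 1 RPKM, and the widest ratios were Snai2 at -0.58, Cdh2 at -0.54 and Zeb2 at -0.49.

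Against KD, AP3 ESCs had 3 genes higher and none lower (27.0% of all entries changed, 13.5% higher and 13.5% lower, and 16.8% of those with a mean of at least 1 RPKM). These were Zeb2 at 1.21, Vim at 1.03 and Snai1 at 0.59, the last at the threshold. In EBs 6 genes changed (22.7% of all entries, 11.6% higher and 11.1% lower). With a mean of at least 1 RPKM, 5 of 9 genes changed, beside 10.2% of entries. Cdh2 at 1.21, Snai2 at 1.15, Zeb2 at 1.10 and Vim at 1.09 were higher in AP3, and Krt18 at -0.87 and Krt8 at -0.70 were lower. With 1 RPKM added, Snai2 (0.58) and Zeb2 (0.40) no longer passed 1.5-fold in this comparison. The comparisons among the 3 lines share libraries, so a gene extreme in 1 library appears in more than 1 of them.

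The lines were also compared over both days in limma with day as a block, where the days stand in for replicates and a difference must be shared by ESCs and EBs. No entry had an adjusted p under 0.05 in AP3 against WT, KD against WT or AP3 against KD (0.0% of 12702 entries in each), so none of the 10 genes did. At an unadjusted p under 0.05 limma gave 729, 349 and 946 entries in these comparisons, with 2, 1 and 2 of the 10 genes among them. The lowest adjusted p of the 10 genes was that of Vim in AP3 against KD, with a mean log2 difference of 1.06 and the same sign at both days (limma adjusted p = 0.20). The next lowest p-values before adjustment were those of Krt18 in AP3 against WT (mean -1.02, limma adjusted p = 0.69) and Vim in AP3 against WT (mean 0.57, limma adjusted p = 0.76). The differences between lines given above are therefore descriptions of single libraries.

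**Figure D3:**
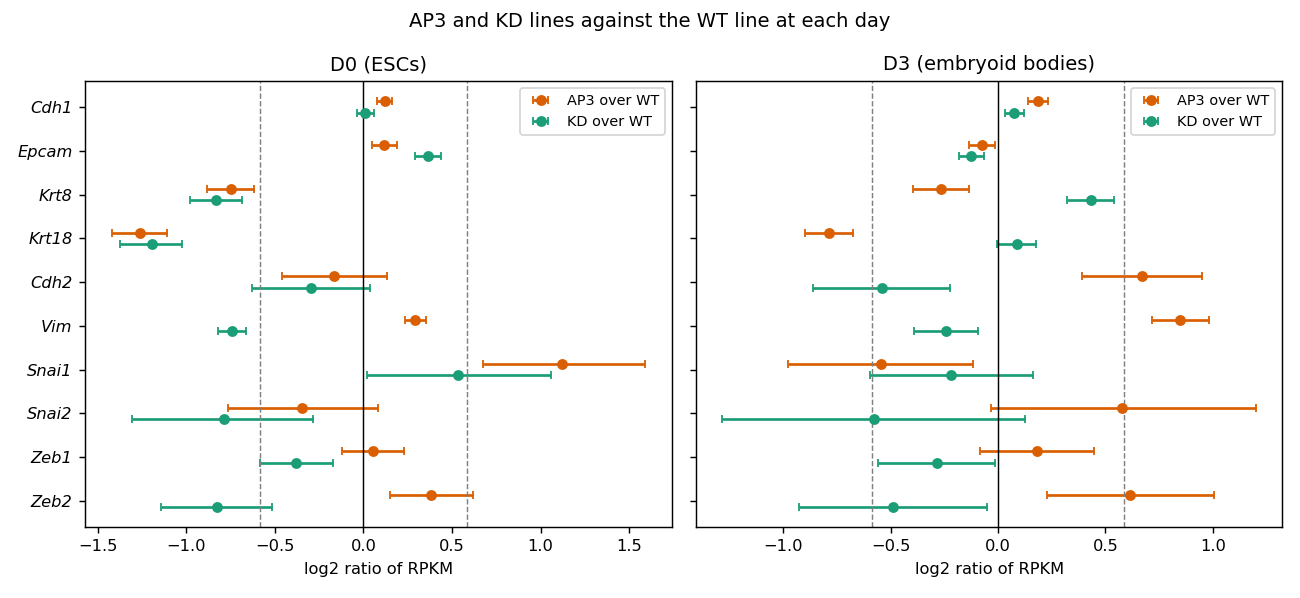
Log2 ratio of RPKM in AP3 over WT (orange) and KD over WT (green) at D0 (left) and D3 (right), with 95% counting intervals and dashed lines at 1.5-fold. Both keratins lie left of zero in both comparisons at D0, and Vim, Cdh2 and Zeb2 lie right of zero in AP3 and left of it in KD at D3.

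Fibroblast genes were examined because ESCs were grown on embryonic fibroblasts. The 12 fibroblast markers summed to 34.5, 28.6 and 58.8 RPKM in WT, KD and AP3 ESCs and to 13.8, 8.07 and 11.8 RPKM in EBs. Without Thy1, which was at 1.74 to 2.42 RPKM in ESCs and 3.56 to 9.19 RPKM in EBs, the other 11 summed to 32.7, 26.2 and 57.0 RPKM in ESCs and to 4.6, 2.58 and 8.24 RPKM in EBs. This sum without Thy1 had the line order of Vim, Zeb1 and Zeb2 at both days. With Thy1 included, that order held in ESCs only, and WT was the highest line in EBs.

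Col1a2, an interstitial collagen chain that defines fibroblasts, was at 12.9, 11.8 and 22.5 RPKM in WT, KD and AP3 ESCs and at 1.3, 0.591 and 2.36 RPKM in EBs. Col1a1, the partner chain, was at 9.76, 7.42 and 15.5 RPKM in ESCs and at 1.54, 0.923 and 2.57 RPKM in EBs. Postn was listed at 0 in AP3 ESCs and in all 3 EB libraries. Of the markers with at least 1 RPKM in either library, 6 of 7 were lower in WT EBs than in WT ESCs, beside 10.6% of all entries with that level, and 6 of 9 were higher in AP3 than in WT ESCs, beside 7.79%. Markers that reached 1 RPKM in only the ESC library, or only the AP3 library, could only be higher there.

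The share of the D0 level that remained at D3 differed among fibroblast markers, and Vim lay within their range. Vim stood at 19.7%, 27.8% and 29.0% in WT, KD and AP3. Col1a2 stood at 10.0%, 5.00% and 10.5%, Pdgfrb at 20.4%, 18.9% and 23.9%, and Fbn1, a microfibril protein, at 26.8%, 28.3% and 36.3%. Zeb1 was above these named markers, at 46.7%, 49.8% and 51.0%, but not above every marker of the list. Thy1 stood at 527%, 227% and 205%, and another marker, under 1 RPKM in WT and KD, was above Zeb1 in those lines. Zeb2 kept 37.9% to 48.0% of its ESC level and Snai2 kept 40.9% to 77.5%. The ratio of Vim to Col1a2 was 6.74, 4.41 and 4.75 in WT, KD and AP3 ESCs and 13.2, 24.5 and 13.1 in EBs. With no filter on level or size, 8 of all 12 markers had a lower value in the EBs than in the ESCs of all 3 lines and 1, Thy1, a higher one, beside 17.5% and 19.1% of all 21639 entries. The part of the fibroblast markers in these differences was not tested.

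**Figure D4:**
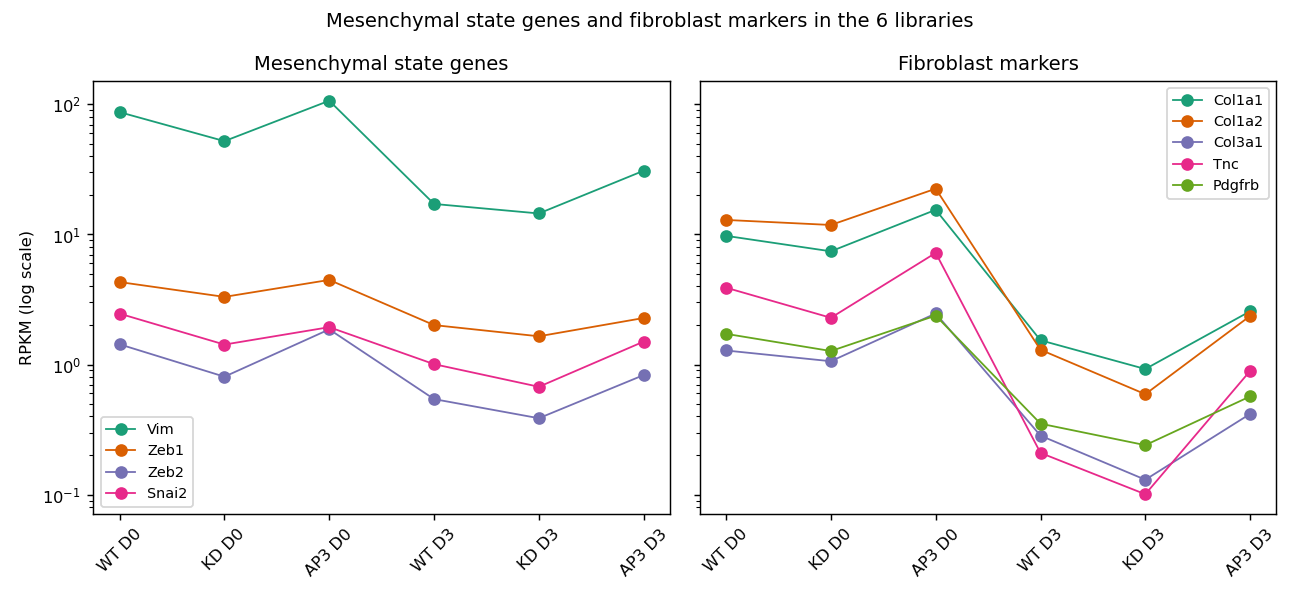
RPKM on a log axis for Vim, Zeb1, Zeb2 and Snai2 (left) and for 5 fibroblast markers, Col1a1, Col1a2, Col3a1, Tnc and Pdgfrb (right), in the 6 libraries, with lines joining the points of a gene to guide the eye. All 9 genes are lower in the 3 EB libraries than in the ESC library of the same line, and in the WT line 19.7% of the ESC level of Vim and 10.0% of that of Col1a2 remained in EBs.

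Keratins 8 and 18 are also genes of the extraembryonic endoderm that forms on the outside of EBs. The 12 markers of that layer summed to 21.9, 28.6 and 67.9 RPKM in WT, KD and AP3 ESCs and to 123, 337 and 163 RPKM in EBs. Cubn, the endocytic receptor of visceral endoderm, was at 2.64, 3.95 and 12 RPKM in ESCs and at 26.2, 93.3 and 34.6 RPKM in EBs. The KD EB library had the highest marker sum and the highest Krt8 and Krt18, but AP3 ESCs had the highest sum at D0 and low keratins, and AP3 EBs had a higher sum than WT EBs with lower keratins. Of the markers with at least 1 RPKM in either library, 2 of 11 were higher and 1 lower in AP3 than in WT EBs (4.2% and 5.98% of all entries; median log2 ratio -0.03), 10 of 12 were higher and none lower in KD than in WT EBs (3.71% and 4.88%), and none were higher and 10 of 12 lower in AP3 than in KD EBs (5.5% and 5.78%). Markers that reached 1 RPKM in only the KD library of a pair could only be higher there. In AP3 against WT EBs, Dab2, an endocytic adaptor, was at 70.3 RPKM against 41.8 RPKM. The part of these cells in the keratin levels was not tested. The 5 trophectoderm markers measured, Krt7 among them, summed to 7.07, 4.18 and 4.13 RPKM in ESCs and to 4.78, 3.08 and 2.60 RPKM in EBs.

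**Figure D5:**
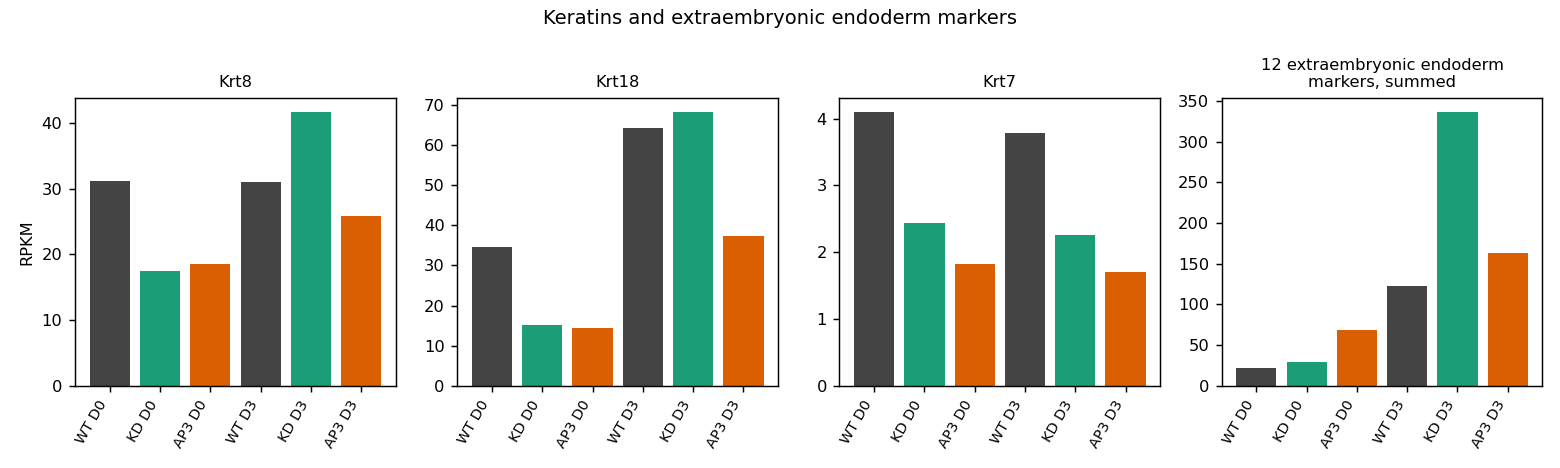
RPKM of Krt8, Krt18 and Krt7 and the summed RPKM of 12 extraembryonic endoderm markers (vertical axes from 0, each on its own scale) in WT (grey), KD (green) and AP3 (orange) libraries at D0 and D3. The keratins were highest in WT at D0, where the marker sum was lowest at 21.9 RPKM, and the KD EB library was highest for Krt8, Krt18 and the marker sum.

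Other genes of the same machinery were counted by list, keeping genes with at least 1 RPKM in either library. A gene that reached 1 RPKM in only 1 of the 2 libraries could only be higher there. Between WT ESCs and EBs, 12.4% of such entries were higher, 10.6% were lower and their median log2 ratio was 0.04. Of 15 adherens junction and desmosome genes, 2 were higher and 1 was lower in EBs (median -0.01), the latter being Perp, a desmosome-associated membrane protein, at 15.0 RPKM in ESCs and 3.38 RPKM in EBs. Of 19 tight junction and polarity genes, 7 were higher and 1 lower (median 0.18), with the claudins Cldn6 (30.0 to 63.4 RPKM) and Cldn7 (24.6 to 44.7 RPKM) and the apical polarity gene Crb3 (9.44 to 19.8 RPKM) among the higher. Of 17 other epithelial genes, 6 were higher and 2 lower (median 0.25), including the apical membrane gene Prom1 (2.91 to 14.5 RPKM) and the recycling GTPase gene Rab25 (2.13 to 8.53 RPKM).

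Of 24 other mesenchymal genes, 9 were lower and 2 higher in WT EBs (median -0.45). S100a4, a calcium-binding protein of motile fibroblasts, went from 8.87 to 0.432 RPKM, Tagln, an actin-binding protein of smooth muscle, from 16.4 to 2.80 RPKM, and the mesenchymal homeobox gene Prrx1 from 4.86 to 0.691 RPKM. Sparc, a matrix protein also made by extraembryonic endoderm, went the other way, from 98.4 to 296 RPKM. A list of 16 TGF-beta pathway genes held ligands, receptors and Smads, the inhibitors Smad7, Skil and Tgif1, and the BMP-responsive Id genes. Of these, 10 were lower and none was higher (median -1.10), among them Id3 (19.0 to 3.75 RPKM), Id2 (12.2 to 3.74 RPKM) and the chromatin protein gene Hmga2 (19.9 to 7.03 RPKM). In both lists some of the lower genes, S100a4 and Prrx1 among them, reached 1 RPKM only in the ESC library and could only be lower.

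In AP3 against WT ESCs, where 7.79% of entries were higher and 6.07% lower, 3 of 15 adherens junction and desmosome genes were higher, namely Perp (24.5 against 15.0 RPKM) and the nectin genes Pvrl2 (55.7 against 37.0 RPKM) and Pvrl1 (8.91 against 5.84 RPKM). None of 19 tight junction and polarity genes changed. Of 17 other epithelial genes 4 were lower: Krt7, Rab25 (0.653 against 2.13 RPKM), Krt19 (3.18 against 4.85 RPKM) and the epithelial transcription factor gene Grhl2 (1.95 against 3.19 RPKM). Of 23 other mesenchymal genes 4 were higher, including Sparc (237 against 98.4 RPKM) and Twist1 (5.37 against 3.09 RPKM), and Tagln was lower (5.70 against 16.4 RPKM). In KD against WT ESCs 7 of 24 other mesenchymal genes were lower and 1 was higher (median -0.33), beside 4.65% and 3.37% of entries.

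In AP3 against WT EBs, where 4.20% of entries were higher and 5.98% lower, 4 of 22 other mesenchymal genes were higher and none lower (median 0.25). These were Tagln (8.41 against 2.80 RPKM), the Wnt effector gene Lef1 (3.61 against 1.3 RPKM), S100a4 (1.37 against 0.432 RPKM) and Prrx1 (1.07 against 0.691 RPKM). S100a4 and Prrx1 reached 1 RPKM only through the AP3 library, and Prrx1 was at 0.29 and not called with 1 RPKM added. Of 12 TGF-beta pathway genes 4 were higher and none lower (median 0.22): Id1 (8.64 against 4.05 RPKM), Id3 (7.67 against 3.75 RPKM), Hmga2 (13.6 against 7.03 RPKM) and the ligand gene Tgfb1 (2.54 against 1.38 RPKM). Among epithelial genes Krt7, Prom1 (9.20 against 14.5 RPKM) and Tjp3, a tight junction scaffold (log2 ratio -0.62), were lower, and Cd24a was higher (log2 ratio 0.65). The 15 adherens junction and desmosome genes had no change past the threshold.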

How the data were processed

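The 10 genes and all gene lists were chosen with earlier results of these data known. According to the study's methods, single-end reads were aligned to mm9 with TopHat and Bowtie 0.12.7, allowing 2 mismatches and 20 locations, and gene levels came from Cufflinks 1.3.0 (the submitters' processing notes give TopHat as 1.14). The authors deposited RPKM values per gene, normalised to transcript length and library size. The deposited table also holds the authors' log2 ratios between lines, which were not used. Whether the libraries or the counting kept strand is not given in the sources used here, and Cdh2, Zeb1 and Zeb2 overlap annotated genes on the opposite strand.

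Log2 ratios were computed as log2((RPKM + 0.001)/(RPKM + 0.001)) and called changed past 1.5-fold. Each condition had 1 library, so 2 single libraries were not tested against each other. The day comparison over the 3 lines and the line comparisons over both days were added later (limma 3.58.1, line or day as block, trend, Benjamini-Hochberg adjustment, entries reaching 1 RPKM in any library) and were tested on simulated data. The 3696 genes with 1 annotated transcript over 1.5 kb gave the depth of each library, as their low values step by what 1 read is worth, and the estimator was tested on simulated data. Approximate reads gave exact Poisson intervals for levels and exact binomial intervals for ratios (95%), which cover counting error only. They treat reads as independent molecules, although no molecular identifiers are mentioned. All 10 genes were named. From each list at most 4 genes were named per comparison, in WT EBs against ESCs and in AP3 against WT at both days, by the largest log2 ratio with a pseudocount of 1 RPKM among those past 1.5-fold, with defining markers named also for their level. Some items are not reported here. Symbols Nanog, Patj and Tfap2c were not analysed here. Genes most like Cdh1 and Vim were the 5 entries with the highest Pearson r of log2(RPKM + 1) among entries with a mean of at least 5 RPKM and a range of at least 1 on that scale. Alternatives were pseudocounts of 0.1 and 1 RPKM, centring, a 2-fold threshold, a filter at 1 RPKM, summing entries that share a symbol, and Spearman rho for likeness. Scripts ran in Python 3.11.15 (pandas 2.3.3, numpy 2.4.6, scipy 1.17.1), with figures from matplotlib 3.10.9.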

Additional observations from a re-analysis of the deposited data

Results flagged for a closer look

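Snai1 was singled out because its log2 ratio of EBs to ESCs had opposite signs in 2 lines under the same contrast, 0.94 in WT and -0.72 in AP3. The difference between the lines was not tested, since each condition had 1 library. It rests on 53 and 109 approximate reads in WT and on 184 and 81 in AP3. With a pseudocount of 1 RPKM the AP3 ratio was -0.55 and no longer passed 1.5-fold.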

How the results depend on the processing

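Of 90 log2 ratios of the 10 genes in 9 comparisons, 40 passed 1.5-fold and none reversed under any alternative. Lost calls numbered 2 with a pseudocount of 0.1 RPKM, 11 with 1 RPKM, 1 after centring each pair on its median ratio and 18 at 2-fold, and summing entries per symbol changed none. Of 54 recomputed counts 6 moved by over 1.5 times. At 2-fold, the count went from 7 to 4 genes in WT EBs against ESCs, from 6 to 3 in AP3 EBs against ESCs, from 4 to 0 in AP3 against WT EBs and from 5 to 1 in KD against WT ESCs, as a higher threshold must do. With a pseudocount of 1 RPKM it went from 4 to 2 in AP3 against WT EBs and from 5 to 3 in KD against WT ESCs, where Cdh2 and Zeb2, and Snai2 and Zeb2, lost their calls, since a larger pseudocount shrinks the ratios of low genes most. The count for AP3 against KD ESCs includes Snai1, which lost its call under pseudocounts of 0.1 RPKM (0.57) and 1 RPKM (0.45) and after centring (0.55). Likeness of Cpe to Cdh1 was 0.967 by Pearson r and 0.886 by Spearman rho. The day comparison paired by line, chosen after seeing the data, called 3 genes with and 3 without the line block, and 1 to 4 when 1 line was left out. The line comparisons with day as the pair, also chosen after seeing the data, called 0 of the 10 genes with and without the day block. Depth limits Snai1 and Snai2 most, at 35 to 184 approximate reads.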

Other observations

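Over the 6 libraries, the pattern of Vim was most closely followed, among 807 candidate entries, by Tmsb4x (thymosin beta 4, an actin monomer-binding protein, with a Pearson r of 0.998 on log2(RPKM + 1)), Anxa1 (0.997), Bgn (0.994), Rnd3 (0.994) and Anxa3 (0.993). Anxa1, an annexin, was at 24.3, 9.41 and 28 RPKM in WT, KD and AP3 ESCs and at 1.82, 1.06 and 4.08 RPKM in EBs. Bgn, the matrix proteoglycan biglycan, was at 35.5, 21.9 and 49.8 RPKM in ESCs and at 2.41, 1.88 and 6.01 RPKM in EBs. All 5 had the same rank order over the libraries as Vim. The libraries are shared by every gene and the value is a description.

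Among the 10 genes, Vim and Zeb1 had a Pearson r of 0.990 over the 6 libraries, Vim and Zeb2 0.956, and Krt8 and Krt18 0.937. Cdh1, which fell within a narrow range, had an r of 0.944 with Vim. The entries most like Cdh1 were Snhg1 (0.982), a snoRNA host gene at 185, 186 and 237 RPKM in WT, KD and AP3 ESCs and 83.4, 88.3 and 117 RPKM in EBs, then Nrn1 (0.974), Etv4 (0.973), Bcam (0.971) and Cpe (0.967). Candidates had to span at least 1 on the log2(RPKM + 1) scale, so a wider range than that of Cdh1 was fixed by the selection. Etv4, an ETS factor induced by FGF signalling, was at 32.4, 34.4 and 68.7 RPKM in ESCs and 8.62, 7.53 and 23.4 RPKM in EBs.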
